A study of Mus musculus with 3 samples.

Results

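Mitochondrial fatty acid oxidation was examined here through 10 of the genes that encode its enzymes. They were Acadm, Acadl, Acadvl, Acads, Cpt1a, Cpt2, Hadha, Hadhb, Acaa2 and Etfdh. Their ESRRA peaks were those whose midpoint lay within 30 kb of an annotated start site of one of these genes, and genes without such a peak were kept as negatives. Of the 1639 ESRRA peaks, 2 met this rule, and they lay at 3 of the 10 genes. The chromatin came from duodenal villus cells of adult wild-type C57BL/6 mice on regular chow, where 2 libraries were precipitated with anti-ESRRA antibody and 1 was input. No mutant or treated group belongs to this ChIP-seq experiment, and the sources used here do not state how many mice entered each library. The authors called peaks on both ChIP libraries merged, so no value below has a replicate error, and read depth and peak height were not analysed here. A peak list holds no expression level, so the labelled cell type was not checked against marker genes.

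Fatty acid oxidation shortens an acyl chain inside the mitochondrion in repeated rounds. The carnitine shuttle carries long chains in, acyl-CoA dehydrogenases take the first electrons, the trifunctional protein and thiolase complete the round, and electron transfer flavoprotein hands the electrons on to the respiratory chain. In the villus, enterocytes take up dietary fatty acids and rebuild most of them into triglyceride for chylomicrons, and oxidation is the other fate of these chains. ESRRA, the estrogen-related receptor alpha, is a nuclear receptor known for its action on genes of mitochondrial energy metabolism, and Acadm is one of its classical targets. It binds the half-site AAGGTCA, and most tightly its extended form TCAAGGTCA.

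The DNA of both peaks is shown because they are the only ones at these genes and differ in base composition and in where AAGGTCA lies. Each stretch is from mm9, is read 5′ to 3′ in the direction of the Acadm or Hadha gene (minus strand), and leaves out annotated exons. Capitals mark AAGGTCA or its reverse complement TGACCTT. The first is chr3:153607676-153607955, upstream of Acadm, and the second is chr5:30478818-30479097, in an intron of Hadha.
Acadm: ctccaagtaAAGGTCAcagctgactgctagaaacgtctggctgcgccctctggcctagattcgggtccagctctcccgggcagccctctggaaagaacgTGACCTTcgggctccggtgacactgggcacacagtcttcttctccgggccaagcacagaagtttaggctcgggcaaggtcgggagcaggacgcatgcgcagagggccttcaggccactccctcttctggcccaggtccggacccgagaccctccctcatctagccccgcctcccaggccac
Hadha and Hadhb: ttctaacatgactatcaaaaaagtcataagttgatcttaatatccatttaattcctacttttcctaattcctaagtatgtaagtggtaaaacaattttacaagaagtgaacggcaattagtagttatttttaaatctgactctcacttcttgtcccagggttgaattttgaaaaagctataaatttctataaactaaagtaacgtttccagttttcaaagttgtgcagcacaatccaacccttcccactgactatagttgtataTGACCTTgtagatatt

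Acadm, the medium-chain acyl-CoA dehydrogenase, was the only 1 of the 10 genes with an ESRRA peak at its promoter. The peak (chromosome 3, 153607512 to 153608112) was centred 216 bp upstream of the 5′-most Acadm start site, and annotated exons covered 85 of its 601 bases. Among all 22367 protein-coding genes, 0.738% had a peak as near or nearer. Within 1 kb of a start site, the background was 2.08% of protein-coding genes, against 1 of the 10 genes here. No other peak lay within 4152893 bp of this peak, and the only other protein-coding gene with a start site within 30 kb was Slc44a5, a choline transporter-like gene, at 28588 bp.

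The Acadm peak held AAGGTCA at 2 places, both upstream of the gene and outside annotated exons. The match nearer to the midpoint, 40 bp from it, read CGAAGGTCA and lay 256 bp upstream of the start site, on the strand opposite to the gene. The other read TAAAGGTCA, lay 348 bp upstream of the start site and 132 bp from the midpoint, and ran in the direction of the gene. The starts of the 9-base matches were 92 bases apart. Counted from 1 at the 5′ end of TCAAGGTCA, the first differed from the extended form by T1C and C2G and the second by C2A. The exact sequence TCAAGGTCA was absent from this peak.

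Hadha and Hadhb, which encode the alpha and beta subunits of the trifunctional protein, shared the other peak. They stand head to head, with 86 bases between their 5′-most start sites, so this is 1 peak counted for 2 genes and not 2 independent events. The peak (chromosome 5, 30478723 to 30479323) was centred 2479 bp downstream of the nearest Hadha start site and 2765 bp upstream of the nearest Hadhb start site. It lay in the first of the 19 introns of the protein-coding Hadha transcript that spans it, an intron of 6860 bases, and 0 of its bases were exonic. Peaks as near or nearer were found at 2.64% of protein-coding genes for the Hadha distance and at 2.73% for the Hadhb distance. The next peak on the chromosome was 455927 bp away.

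In the Hadha intron peak AAGGTCA occurred once, as ACAAGGTCA, which differs from the extended form by T1A. It was 194 bp from the midpoint. Of the 676 single-copy peaks that held AAGGTCA, 9.91% had their nearest match this far from the midpoint or farther, and the median distance was 61 bp. The Acadm match at 40 bp was nearer than this median. On the other side of the midpoint the intron peak held near forms in overlapping places, TCAGGGTCA (A4G) at 155 bp and TCAAGGACA (T7A) at 161 bp. A single-copy peak is one in which the median of its 24-base words occurs at most 10 times in the genome. The median was 1 copy in both peaks, so neither lay in repeated sequence by this measure.

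**Figure D1:**
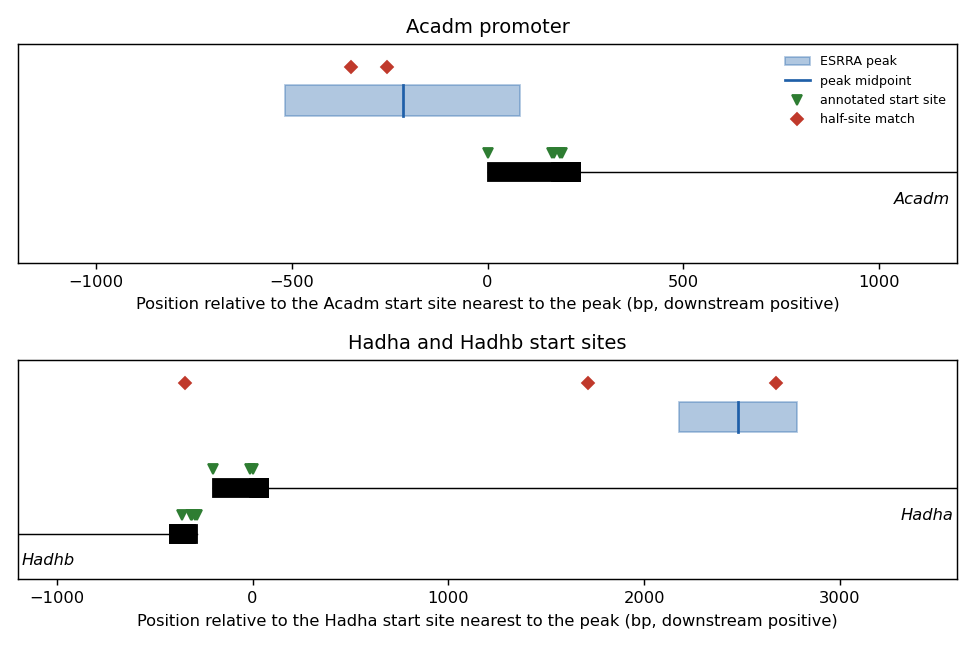
Position of the ESRRA peaks (blue bars, midpoint as a line) at Acadm (top) and at Hadha and Hadhb (bottom), in bp from the start site nearest to the peak, with annotated exons (black boxes), start sites (green triangles) and AAGGTCA matches (red diamonds). The Acadm peak spans the start site with its midpoint 216 bp upstream. The midpoint of the other peak lies 2479 bp downstream of the nearest Hadha start site, and the match at the shared promoter is outside that peak.

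The peaks differed in base composition. GC content was 57.2% in the Acadm peak and 34.1% in the Hadha intron peak, and the median of the 1315 single-copy peaks was 50.4%. A value at or below that of the intron peak was found in 1.06% of single-copy peaks, and one at or below that of the Acadm peak in 80.5%. The Acadm peak held 26 CpG dinucleotides and the intron peak 4. As a ratio to the number that their C and G content would give, this was 0.543 in the Acadm peak and 0.229 in the intron peak. The median ratio of single-copy peaks was 0.249, so for its GC content the intron peak was near the median.

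Of 11 sequences searched on both strands, the Acadm peak held 4 and the Hadha intron peak 1. The exact form TCAAGGTCA was in 0 of the 2 peaks, and it was in 14.3% of all 1639 peaks, in 17.7% of single-copy peaks and, beside the peaks, in 1.59% of 3074 windows as wide as a peak. AAGGTCA, which is part of the extended form, was in both, and in 44.0% of all peaks and 12.6% of the windows beside them. TNAAGGTCA, where N is any base, was in the Acadm peak and in 20.4% of all peaks. The Acadm peak also held GCGCATGC, a form of the site of NRF1, an activator of nuclear genes for mitochondrial proteins, which was in 1.10% of all peaks. For 5.80% of protein-coding genes it was in a window as wide as a peak at any start site. A gene can have several such windows, so this share is not per window as that of peaks is. TTTATGG, a form of the CDX site, was the other sequence in this peak, and was in 6.59% of all peaks. Neither peak held the HNF4A form CAAAGTCCA, the CRE TGACGTCA, the ETS form CCGGAAG, the SP1 form GGGCGG, the GATA form AGATAA or DR1, a direct repeat of AGGTCA with 1 base between. With 2 peaks, no share of theirs was compared by a test.

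The promoter that Hadha and Hadhb share held a match outside the peak. ACAAGGTCA, the same 9 bases as in the intron peak, lay 144 bp upstream of the nearest Hadha start site and 17 bp upstream of the nearest Hadhb start site, in an untranslated exon of Hadhb, and no peak covered it. Within 1 kb of their start sites the 10 genes held 11 AAGGTCA matches, of which 2 lay in a peak, both at Acadm. Across all protein-coding genes, 1.92% of 15084 such matches lay in a peak. Matches are a description of letters and not of binding.

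The matches at genes without a nearby peak, and at the Hadha and Hadhb promoter, are printed in 30 bases each, because they show the same letters as in the Acadm peak without a peak called on them. AAGGTCA is in capitals, and each is read in its own direction.
Acadm, in the peak, chr3:153607850-153607856 (plus strand): accggagcccgAAGGTCAcgttctttccag
Acadm, in the peak, chr3:153607940-153607946 (minus strand): ctctccaagtaAAGGTCAcagctgactgct
Hadha and Hadhb promoter, chr5:30481842-30481848 (minus strand): ccgctgccaacAAGGTCAagtccagactga
Etfdh, chr3:79432217-79432223 (minus strand): catctaggttaAAGGTCAtgagaagagaaa
Etfdh, chr3:79432303-79432309 (minus strand): aaactagggcaAAGGTCAatgctgtcagcg
Acads, chr5:115568902-115568908 (plus strand): gagttatgtccAAGGTCAtaggtcggagtt
Acadl, chr1:66905343-66905349 (plus strand): agctgaggagaAAGGTCAactgggcacttt
Cpt2, chr4:107595308-107595314 (minus strand): ctccatcttctAAGGTCAgccttaacctag

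The Etfdh match 384 bp downstream of a start site had the same 9 bases, TAAAGGTCA, as the Acadm match in the direction of the gene. The Acads match, 380 bp downstream of a start site in an intron, differed from the extended form by T1C alone. Acadvl held 2 further matches, at 639 bp downstream and 968 bp upstream of a start site and both in exons, and Acaa2 held 1 at 287 bp downstream, in an intron. Cpt1a held none within 1 kb. In all, 9 of the 10 genes had AAGGTCA within 1 kb of a start site, and 43.9% of protein-coding genes did. The genes here had a median of 5 annotated start sites and all protein-coding genes a median of 2, and with the 5′-most start site alone the figures were 7 of 10 and 29.4%.

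TCAAGGTCA was within 1 kb of a start site at 0 of the 10 genes and at 7.99% of protein-coding genes. A peak within 1 kb was found at 6.77% of the genes that had it there and at 1.67% of those that did not. Sequence and peak were both counted at any annotated start site, so a gene with more start sites can more easily have both. With the 5′-most start site alone, 4.23% of protein-coding genes had TCAAGGTCA within 1 kb, and the peak shares are not given for that setting. Within 30 kb of the 10 genes lay 16 TCAAGGTCA sites, and 0 of them were in a peak. Over all protein-coding genes 0.970% of 28037 such sites were. For 16 sites, a count of 0 is near that share, so nothing particular to these genes is read from it. The nearest TCAAGGTCA site was 2904 bp from a start site of Cpt2 and 3617 bp from that of Cpt1a. For Acadm it was 6167 bp away, outside its peak.

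**Figure D2:**
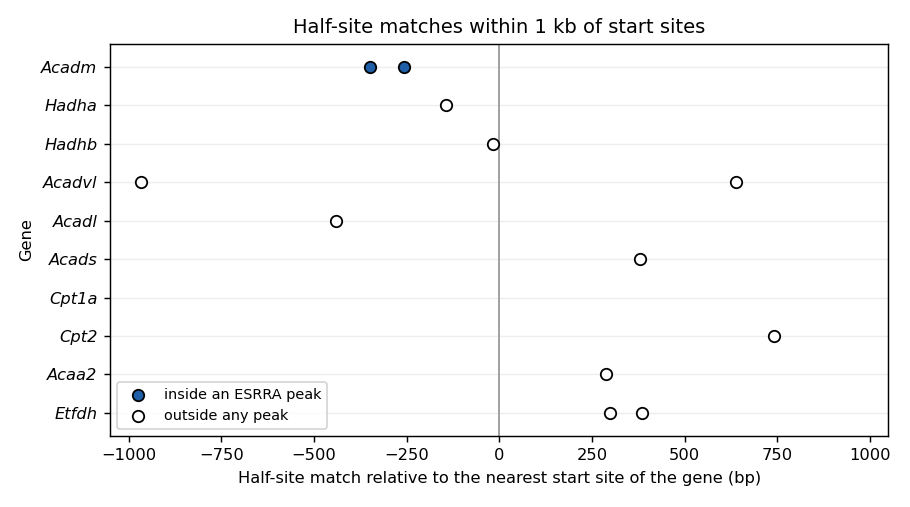
AAGGTCA matches within 1 kb of the start sites of the 10 genes, by distance in bp from the nearest start site of each gene (negative is upstream), filled where the match lies inside an ESRRA peak and open where it does not. Filled points are found only at Acadm, and Cpt1a has no match. The match upstream of Hadha and that upstream of Hadhb are 1 site.

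Of the 10 genes, 3 had a peak within 30 kb. The background over all protein-coding genes was 8.75% (95% Wilson interval 8.38 to 9.12%), or 1956 of 22367. The same 3 genes had one within 10 kb, where the background was 4.64%. Within 100 kb, where the background was 19.8%, Acadvl and Acaa2 were added, which gave 5 of 10. The last gene inside the window was Hadhb at 2.77 kb and the first outside it was Acadvl at 44.8 kb, so no gene was close to the limit of 30 kb. The median distance to the nearest peak was 138 kb for the 10 genes and 448 kb for all protein-coding genes. The 10 genes are a chosen list and not the whole pathway. Of 20 other enzymes of mitochondrial beta-oxidation, described below, 3 had a peak within 30 kb, and their median distance was 966 kb. Because Hadha and Hadhb share a peak, the 10 genes are not 10 independent places.

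The genes without a peak within 30 kb follow in the order of the pathway. In the carnitine shuttle, Cpt1a, which joins long chains to carnitine at the outer membrane, had its nearest peak 396 kb away, an intergenic peak with 1810055G02Rik as its nearest protein-coding gene. Cpt2, which restores the acyl-CoA at the inner membrane, had its nearest peak 1301200 bp away at the promoter of Ttc22, with start sites of 24 other protein-coding genes between. Neither gene had a peak in its body or within 100 kb.

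Among the acyl-CoA dehydrogenases, which differ in the chain length they accept, the medium-chain enzyme Acadm stood apart from the other three. Acadvl, the very long-chain enzyme, had its nearest peak 44.8 kb away, 752 bp from a start site of Cldn7, a tight junction gene. Acads, the short-chain enzyme, had its nearest peak 229404 bp away, 164 bp from a start site of Cox6a1, a subunit of cytochrome c oxidase. Acadl, the long-chain enzyme, had none within 1 Mb, and its nearest was 1702826 bp away. For 82.5% of protein-coding genes a peak was as near as this or nearer.

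After the trifunctional protein, Acaa2, the thiolase that releases acetyl-CoA, had its nearest peak 45.7 kb upstream (chromosome 18, 74892836 to 74893436), 283 bp from a start site of Myo5b, a motor protein of apical membrane traffic. Etfdh, which passes the electrons to ubiquinone, had its nearest peak 447 kb away, 259 bp from a start site of Rapgef2. That distance was the median place among protein-coding genes, 50.0% of which had a peak as near or nearer. The nearest peak was at the promoter of another gene for Acadvl, Acads, Cpt2, Acaa2 and Etfdh. Promoter peaks made up 469 of the 1315 single-copy peaks, but that is a share of peaks and not of genes. The like share of all protein-coding genes is not given here, so nothing particular to these genes is read from this. Since peaks below the calling threshold are not in the list, binding at these 7 genes was not detectable in this list, which is not the same as absent.

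**Figure D3:**
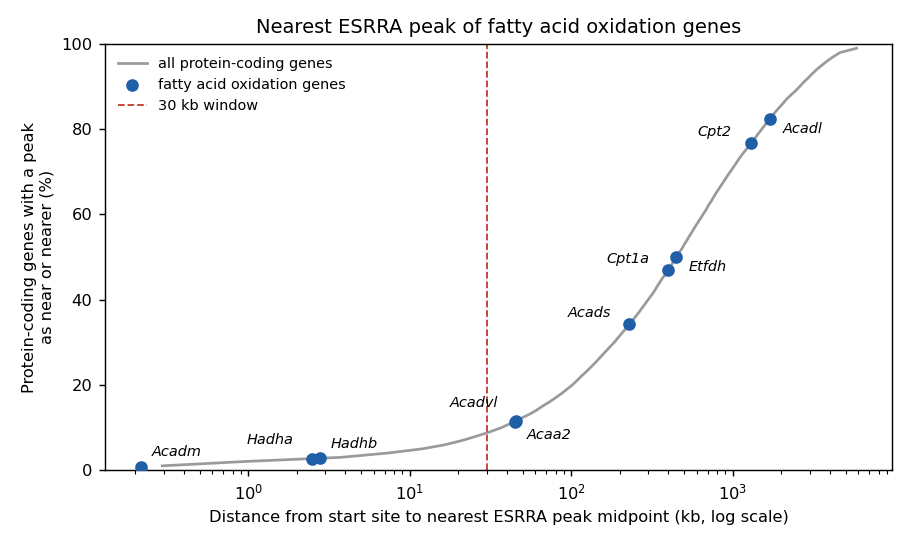
Distance in kb (log scale) from each of the 10 genes to its nearest ESRRA peak midpoint, against the percent of protein-coding genes with a peak as near or nearer (grey line, all protein-coding genes, with the red line at 30 kb). Acadm, Hadha and Hadhb lie far left of 30 kb, Acadvl and Acaa2 at 44.8 and 45.7 kb, and Acadl at the far right.

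Further gene lists, 5 in number and written by pathway, place these values beside related enzymes, and no difference between lists was tested. Within 30 kb of a peak lay 3 of 12 genes of the carnitine shuttle and acyl-CoA synthesis, 3 of 20 other enzymes of mitochondrial beta-oxidation, 1 of 5 genes of ketone body metabolism, and 1 of 15 genes of peroxisomal beta-oxidation. Of the tricarboxylic acid cycle enzymes, which oxidise the acetyl-CoA that fatty acid oxidation yields, 7 of 18 had one. These counts were 25.0, 15.0, 20.0, 6.67 and 38.9% of their lists, and 8.75% of all protein-coding genes had a peak within 30 kb. In lists this short, 1 gene more or less changes a share by much. Within 1 kb the counts were 1, 1, 1, 0 and 7, beside 1 of the 10 enzymes described above and 2.08% of all protein-coding genes. The list of the carnitine shuttle also includes Acacb, which makes malonyl-CoA, and Acacb was its 1 gene within 1 kb. The median distance was lower than the 448 kb of all genes in the list of the carnitine shuttle (270 kb), in ketone body metabolism (444 kb) and in the tricarboxylic acid cycle (142 kb), and higher in the other 2 lists (966 and 1320 kb).

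Outside the tricarboxylic acid cycle, 3 genes of the related lists had a peak within 1 kb. Etfa, the alpha subunit of electron transfer flavoprotein, had a peak centred 149 bp downstream of its nearest annotated start site. Etfb, its beta subunit (a gene chosen after its value was seen), had none within 1 Mb. Acacb, which makes the malonyl-CoA that inhibits CPT1, had one 330 bp upstream of an internal start site, in an intron of the longest transcript. Slc16a1, which carries lactate, pyruvate and ketone bodies over the membrane, had one 327 bp downstream. The sequences at these peaks are shown, in 30 bases with the 9-base match in capitals, because each form differs from the next.
Etfa, chr9:55359765-55359773 (minus strand): ccctgtcaggCGAAGGTCAcgggctccctc
Acacb, chr5:114625680-114625688 (plus strand): agtcctaaacTCAAGGTCAggggcagaagt
Slc16a1, chr3:104443034-104443042 (minus strand): agcgtctcccCCAAGGTCAccgggcaccat

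The Acacb peak thus held the exact extended form, 99 bp from its midpoint, as well as AGAAGGTCA at 269 bp. The Etfa match was 9 bp from the midpoint and had the same 9 bases, CGAAGGTCA, as the Acadm match opposite to the gene. In the tricarboxylic acid cycle the genes with promoter peaks included Cs, Idh3a, Ogdh, Dld, Sdha and Sdhd, with midpoints 88 to 435 bp from a start site, and AAGGTCA was in the nearest peak of each of these except Dld. The peaks of Idh3a and Sdhd held TCAAGGTCA.

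The remaining genes within 30 kb in these lists were farther from their peaks, and Acsl5, Cpt1b, Ech1 and Echs1 were named after their values were seen. Acsl5, an acyl-CoA synthetase, had 2 peaks within 30 kb, the nearer 4416 bp downstream of a start site and with AAGGTCA. Cpt1b, the muscle form of CPT1, was 21426 bp from a peak that was nearer to Syce3. Ech1, an isomerase for unsaturated chains, had 5 peaks within 30 kb, the nearest 601 bp from a start site of Lgals4. Echs1, the short-chain enoyl-CoA hydratase, had 3, the nearest 2 bp from a start site of 1810014F10Rik. In peroxisomal beta-oxidation Acox2, an oxidase of branched chains, was 3074 bp from an intron peak, and Abcd3, which carries acyl chains into the peroxisome, was 52115 bp from its nearest peak.

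**Figure D4:**
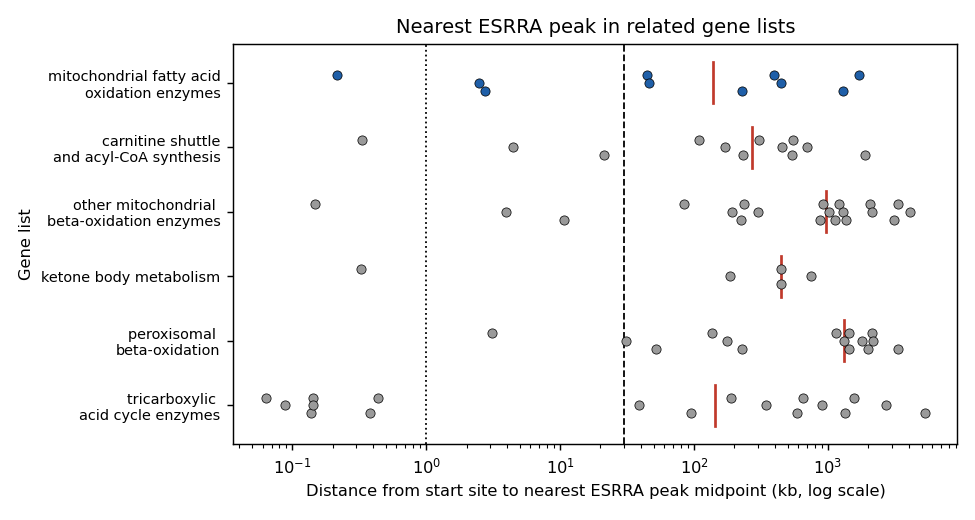
Distance in kb (log scale) from each gene to its nearest ESRRA peak midpoint in the list of 10 fatty acid oxidation enzymes (blue) and in 5 related lists (grey), with the list median as a red bar, dotted and dashed lines at 1 and 30 kb, and vertical shifts only to separate points. Of the tricarboxylic acid cycle enzymes 7 of 18 lie left of 1 kb, and of the fatty acid oxidation enzymes 1 of 10, beside 2.08% of all protein-coding genes.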

How the data were processed

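ESRRA ChIP-seq was carried out on 2 ChIP libraries, with 1 input library. The authors aligned paired-end reads to mm9 with Bowtie2 2.2.6, merged the ChIP libraries with SAMtools 0.1.19 and called peaks with MACS2, which has no version in the sources used here. Versions of the authors' tools are from the submitters' processing notes. The deposited values, the only ones used, were 3 columns per row, a chromosome, a start and an end in base pairs, with a single width of 601 bp. How that width arose is not given in the sources used here.

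Genome sequence and start sites were those of NCBI build 37 (mm9) with GENCODE M1. For the 21 nuclear chromosomes all 1639 midpoints lay within the sequence. Distances ran from any annotated start site to the peak midpoint. Sequences were matched on both strands in peaks, in windows 2 kb to each side free of peaks and gaps, and in windows of the same width centred on the start sites of protein-coding genes. A gene was counted if any of its start site windows held the sequence. Copy number was counted over words of 24 bases.

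Because 1 pooled list allows no replicate error, no test was run, and Wilson intervals cover counting error only. The members and lists were chosen with earlier results of these data known. Named were every member with its peaks, genes of related lists within 1 kb of a peak or else the 3 nearest, and genes nearest to a member's peak, and some genes that this rule takes in are not reported here. Functions were tested on simulated data with Python 3.11.15, numpy 2.4.6 and scipy 1.17.1.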

Additional observations from a re-analysis of the deposited data

How the results depend on the processing

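The number of the 10 fatty acid oxidation genes with a peak, 3 at 30 kb, was 1 at 1 kb (Acadm) and 5 at 100 kb. It was 2 when a peak was counted only for its nearest protein-coding gene, which took out Hadhb. It was 3 in each of the other 6 settings. The share of all protein-coding genes, 8.75%, was 2.08% at 1 kb, 4.64% at 10 kb, 19.8% at 100 kb, 8.32% with start sites of protein-coding transcripts, 7.91% with the 5′-most start site, 4.38% with the nearest gene only, 8.19% with single-copy peaks and 6.46% with isolated peaks, and stayed within its interval (8.80%) with distances to the peak edge. The number of the 2 peaks with the ESRR sequence, 0 for TCAAGGTCA, was 2 for AAGGTCA, 1 for TNAAGGTCA and 2 with up to 1 mismatch (46.3% of all peaks held such a form), and 0 within 100 bases of the midpoint and in single-copy peaks. The median distance of 138 kb was 139 kb with start sites of protein-coding transcripts and 138 kb with single-copy peaks. A stricter p-value and leaving out each ChIP replicate were not run, since the list gives neither a score nor peaks per replicate. No paired analysis was possible because the peaks come from the 2 libraries pooled. The list holds no score per peak, so a weak peak counted the same as a strong one.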

Other observations

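The bases before the half-site drew attention because the promoter peaks of Acadm, Etfa and Sdha, a subunit of succinate dehydrogenase, each held CGAAGGTCA. This form was chosen after the sequences were seen. It was in 15 single-copy peaks in all, of which 8 were at promoters. The nearest protein-coding genes of those 8 were Acadm, Etfa, Sdha, Eno1, Ostb, Cish, Ptprf and Hist1h1c. Eno1 encodes a glycolytic enzyme, and Ostb is a bile acid transporter subunit. Of the 311 AAGGTCA matches in single-copy promoter peaks, 8 (2.57%) had CG before them. The share was 2.15% of 5264 matches in promoter windows of protein-coding genes with no peak within 30 kb, so that the form was about as frequent there. By contrast TC stood before 28.3% of the matches in promoter peaks and 9.86% of those in promoters without a peak, and CC before 25.7% and 11.7%. TA, the bases before the other Acadm match, stood before 2.89% of the matches in promoter peaks and 4.92% of those in promoters without a peak. These shares are descriptions, with no test, and matches from neighbouring windows are not independent.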
